A study of Mus musculus with 12 samples.

Results

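A set of 10 genes of muscle stem cells and Notch signalling was followed in the tibialis anterior, a hindlimb muscle, of 12 male mice aged 4 months. The 10 genes were chosen by name: the satellite cell genes Pax7 and Calcr, the receptors Notch1, Notch2 and Notch3, the ligands Jag1 and Jag2, and the target genes Hes1, Hey1 and Heyl. All 10 are among the 24421 entries of the count table, and all 10 passed the filter on low counts that left 13937 genes for testing. The comparison was between 6 wild-type mice of the C57Bl/6 strain (WT) and 6 mice of the mdx/mTR strain. The mdx allele disrupts the dystrophin gene, Dmd, and the name mTR stands for the telomerase RNA component, whose gene is Terc. No group carried 1 of the mutations alone, and the labels give no breeding generation, so the effects of the 2 alleles cannot be told apart. Whole muscle was sequenced, so a lower level from fewer cells of a type cannot be told apart from less RNA per cell.

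Satellite cells lie between the muscle fibre and its basal lamina, and they make new myoblasts when fibres are damaged. Pax7 is the transcription factor that defines them, and Calcr, the calcitonin receptor, is a surface receptor of the quiescent state. In Notch signalling a Jagged or Delta ligand on 1 cell binds a Notch receptor on its neighbour, proteases release the receptor's intracellular part, and this part joins the DNA-binding protein RBPJ to switch on genes of the Hes and Hey families. Notch signalling keeps satellite cells quiescent, and it also acts in endothelial cells and in the mural cells of blood vessels, where Notch3 is known to be abundant.

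The depth was 36903560 to 40981012 counts per WT library and 35136327 to 60330410 per mdx/mTR library. Levels below are CPM, counts relative to library size, with library sizes scaled by edgeR's TMM method (a trimmed mean of log ratios), and errors are the SD over 6 mice. Dmd served as a check of the labels, at 228 to 244 CPM in the WT mice against 35.2 to 56.4 CPM in the mdx/mTR mice. Terc had 2 counts in all, and could not be used as a check. Genes of the muscle fibre dominated both groups, with 8 fibre markers summing to 188724 to 211397 CPM (WT) and 146031 to 199005 CPM (mdx/mTR).

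The first question was whether satellite cell and Notch genes differed between the groups. Notch2 was higher in mdx/mTR, Notch3 and Jag1 were lower, and the other 7 genes did not pass the test (edgeR quasi-likelihood test, adjusted p below 0.05 over all 13937 genes). Thus 3 of 10 were called, where 48.3% of all tested genes were called, 25.0% higher and 23.4% lower. The median log2 fold change of the 10 was -0.02, beside 0.01 for all tested genes. When library totals alone replaced TMM, 1 of the 10 was called, Notch2, beside 51.3% of all genes, and the median of all genes moved to 0.17.

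**Figure D1:**
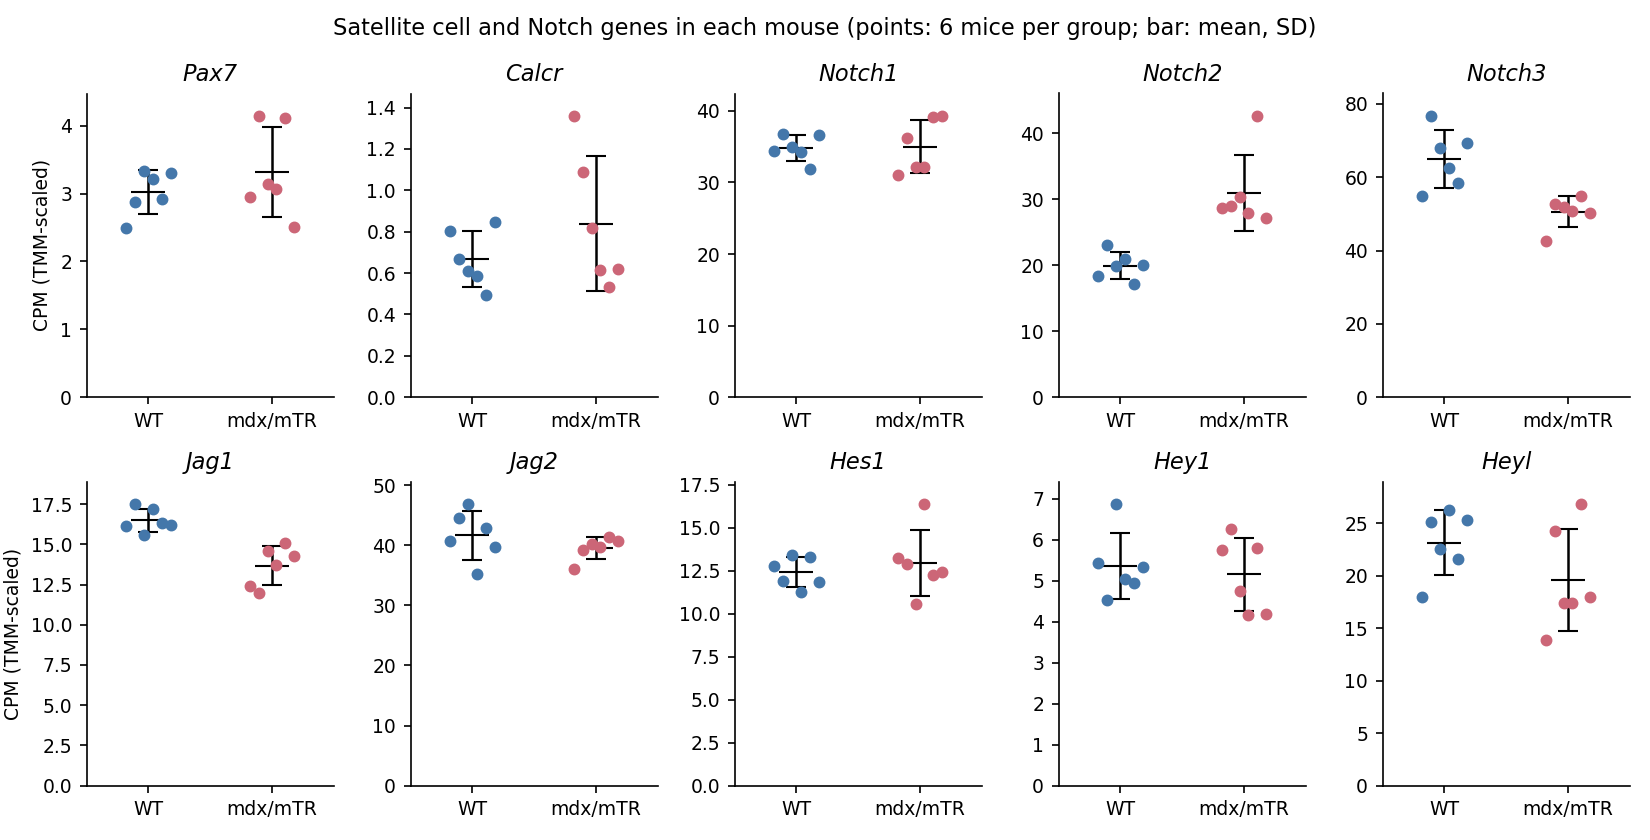
Level of each of the 10 genes (y axis, TMM-scaled CPM, from 0) in 6 WT and 6 mdx/mTR mice; points are mice and bars the mean and SD. The groups are apart for Notch2 and Jag1, 5 of 6 mdx/mTR mice lie below every WT mouse for Notch3, and the ranges overlap for the other 7 genes.

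Pax7 (chr4:139737062-139833528, minus strand, GRCm38) was one of the 2 lowest of the 10 genes. In WT its lowest, median and highest levels were 2.50, 3.07 and 3.33 CPM, and in mdx/mTR they were 2.50, 3.10 and 4.14 CPM. The groups overlapped, with 2 mdx/mTR mice, replicates 2 and 5, above all WT mice. Means were 3.03 ± 0.321 and 3.32 ± 0.664 CPM (SD, n = 6 each), a log2 fold change of 0.13 ± 0.13 (SE; edgeR adjusted p 0.436). The 95% interval of the fold was 0.898 to 1.34.

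Calcr (chr6:3685680-3764714, minus strand) was lower still, with 19 to 78 counts in a library. It ran from 0.496 over a median of 0.640 to 0.848 CPM in WT, and from 0.533 over 0.721 to 1.36 CPM in mdx/mTR. Replicates 1 and 2 of mdx/mTR stood above every WT mouse, and the other 4 lay within the WT range. The log2 fold change was 0.34 ± 0.25 (SE; edgeR adjusted p 0.282), with an interval of the fold from 0.872 to 1.83. Without mdx/mTR replicate 1 the log2 fold change of Calcr was 0.14, and this was the mouse with the highest level and 78 counts.

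The receptors moved in different directions. Notch2 (chr3:98013527-98150361, plus strand) had 17.2, 19.99 and 23.1 CPM as lowest, median and highest level in WT, and 27.1, 28.8 and 42.6 CPM in mdx/mTR. Every mdx/mTR mouse was above every WT mouse, as was the case in one direction or the other for 25.2% of all tested genes. The mean rose from 19.9 ± 2.04 to 30.9 ± 5.82 CPM (SD, n = 6 each), a log2 fold change of 0.63 ± 0.11 (SE; edgeR adjusted p 0.000326). Replicate 5 of mdx/mTR had the highest level, and without it the log2 fold change was 0.52. The sum of 7 macrophage markers moved with the group, from 85.7 to 146 CPM in WT to 252 to 668 CPM in mdx/mTR, and it was also highest in mdx/mTR replicate 5. All 7 macrophage markers were called higher, beside 25.0% of all tested genes. None of the 7 was at 0, and their part in the Notch2 result was not tested.

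Notch3 (chr17:32120820-32166852, minus strand) had the highest CPM of the 10 genes, a scale that does not allow for gene length. In WT it had 54.8, 65.2 and 76.7 CPM as lowest, median and highest level, and in mdx/mTR 42.7, 51.4 and 54.9 CPM. The groups met at their edges, mdx/mTR replicate 5 lying just above WT replicate 1, and the other 5 mdx/mTR mice were below every WT mouse. The mean fell from 64.9 ± 7.94 to 50.6 ± 4.19 CPM (SD, n = 6 each), a log2 fold change of -0.36 ± 0.08 (SE; edgeR adjusted p 0.00230). The call was lost with library totals alone (log2 fold change -0.20, edgeR adjusted p 0.111). Markers of pericytes, the mural cells of small vessels, moved with Notch3: 4 of 6 were lower and 0 higher, and their sum was 750 to 812 CPM in WT against 614 to 705 CPM in mdx/mTR. Of 5 smooth muscle markers 2 were lower and 1 higher, and the sums overlapped (108 to 173 and 126 to 152 CPM). None of these markers was at 0, and their part in the Notch3 result was not tested.

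Notch1 (chr2:26457903-26516663, minus strand) did not pass the test. It ran from 31.8 over a median of 34.6 to 36.8 CPM in WT and from 31.1 over 34.2 to 39.3 CPM in mdx/mTR, so that the WT range lay inside that of mdx/mTR. The log2 fold change was 0.01 ± 0.07 (SE; edgeR adjusted p 0.935) and the interval of the fold was 0.910 to 1.11. GENCODE M21 places exons of other genes over 5.02% of the exon length of Notch2 (same strand), 6.03% of that of Notch3 (antisense) and, from 2 genes on the opposite strand, 7.50% and 2.91% of that of Notch1. The strand handling of the counts is not given in the sources used here, so reads in those stretches may be split or shared.

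Jag1 (chr2:137081456-137116644, minus strand), a ligand of endothelial and mural cells among others, was lower in mdx/mTR. Its lowest, median and highest levels were 15.6, 16.3 and 17.5 CPM in WT and 12.003, 13.98 and 15.1 CPM in mdx/mTR. Every mdx/mTR mouse was below every WT mouse, and for 25.2% of all tested genes the group ranges were apart in one direction or the other. The mean fell from 16.5 ± 0.705 to 13.7 ± 1.23 CPM (SD, n = 6 each), a log2 fold change of -0.27 ± 0.06 (SE; edgeR adjusted p 0.00341). This call too was lost with library totals alone (-0.11, edgeR adjusted p 0.255). Of 10 endothelial markers 6 were lower and 1 higher, beside 23.4% and 25.0% of all tested genes. None was at 0, and the sum of the 10 was 688 to 865 CPM in WT and 549 to 689 CPM in mdx/mTR. The part of these markers in the Jag1 result was not tested.

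Jag2 (chr12:112907819-112929776, minus strand), the other Jagged ligand, ran from 35.3 over 41.8 to 46.8 CPM in WT and from 36.1 over 40.0 to 41.4 CPM in mdx/mTR. All 6 mdx/mTR mice lay within the WT range. The log2 fold change was -0.07 ± 0.06 (SE; edgeR adjusted p 0.350), with an interval of the fold from 0.866 to 1.04. Library totals alone gave a positive sign (0.0853).

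Among the 7 members that have an entry in the RefSeq promoter table (GRCm38.p6), the 3 that passed the test are shown. Their windows hold the letters CACGNG, a form of site that Hes and Hey proteins bind. The windows of the other 4 held no CACGNG. Those of Pax7, Notch1 and Jag2 and 1 of the 2 of Calcr lie inside the gene as GENCODE M21 annotates it. The letters are therefore not read as particular to the 3 genes that passed. The stretches run 5′ to 3′ on the gene's strand, and stop before the first exon base of GENCODE M21, so that they differ in length. Capitals mark CACGNG on either strand.
Notch2 (chr3:98013288-98013526, plus strand): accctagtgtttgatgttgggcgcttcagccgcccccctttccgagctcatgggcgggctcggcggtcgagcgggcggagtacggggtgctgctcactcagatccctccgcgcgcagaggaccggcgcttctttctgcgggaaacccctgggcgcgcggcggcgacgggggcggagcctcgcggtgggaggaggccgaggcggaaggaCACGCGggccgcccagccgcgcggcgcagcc
Notch3 (chr17:32166891-32167140, minus strand): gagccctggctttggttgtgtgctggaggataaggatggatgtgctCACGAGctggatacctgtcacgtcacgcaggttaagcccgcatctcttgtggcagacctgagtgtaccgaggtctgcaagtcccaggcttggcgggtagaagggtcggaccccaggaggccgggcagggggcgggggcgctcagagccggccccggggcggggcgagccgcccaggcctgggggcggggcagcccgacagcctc
Jag1 (chr2:137116645-137116770, minus strand): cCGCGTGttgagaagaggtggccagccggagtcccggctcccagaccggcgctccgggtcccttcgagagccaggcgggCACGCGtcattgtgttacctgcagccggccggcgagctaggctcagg
CACGNG occurs in 23.5% of the 32851 RefSeq windows of the same 250 bases before a start, and in a window of 26.1% of the 27025 genes with one. The core letters of an RBPJ site, TGGGAA on either strand, were in none of the windows of the 7 members. They were in 21.6% of all windows and in a window of 24.1% of these genes. The E-box CANNTG, a site of MyoD-family factors, was in a window of Jag1 and of Calcr, 2 of the 7 members. It was in a window of 69.3% of these genes. A match is a description of the letters and not of binding.

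Of the 3 target genes 0 passed the test, beside 48.3% of all tested genes. Hes1 (chr16:30064384-30067796, plus strand), the best known direct target, had 11.2, 12.3 and 13.4 CPM as lowest, median and highest level in WT and 10.6, 12.6 and 16.4 CPM in mdx/mTR. Its highest and its lowest mouse were both mdx/mTR, replicates 4 and 3. The log2 fold change was 0.06 ± 0.09 (SE; edgeR adjusted p 0.597), with an interval of the fold from 0.913 to 1.19.

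Hey1 (chr3:8663359-8667256, minus strand), a repressor induced by Notch in satellite cells and vessels, ran from 4.52 over 5.19 to 6.86 CPM in WT and from 4.17 over 5.25 to 6.26 CPM in mdx/mTR. The groups overlapped over most of their range. The log2 fold change was -0.05 ± 0.13 (SE; edgeR adjusted p 0.752) and the interval of the fold was 0.798 to 1.16. Scaling by library totals alone gave a positive sign (0.11).

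Heyl (chr4:123233556-123249875, plus strand), a relative of Hey1 known from satellite cells and mural cells, had 17.9, 23.8 and 26.3 CPM as lowest, median and highest level in WT and 13.9, 17.7 and 26.8 CPM in mdx/mTR. Replicates 1, 3 and 4 of mdx/mTR lay below every WT mouse, and replicate 5 lay above all of them. The log2 fold change was -0.24 ± 0.14 (SE; edgeR adjusted p 0.191), with an interval of the fold from 0.684 to 1.05. The outcome rested on mdx/mTR replicate 5, since without it the log2 fold change was -0.35 (edgeR adjusted p 0.0396) and Heyl was called lower.

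**Figure D2:**
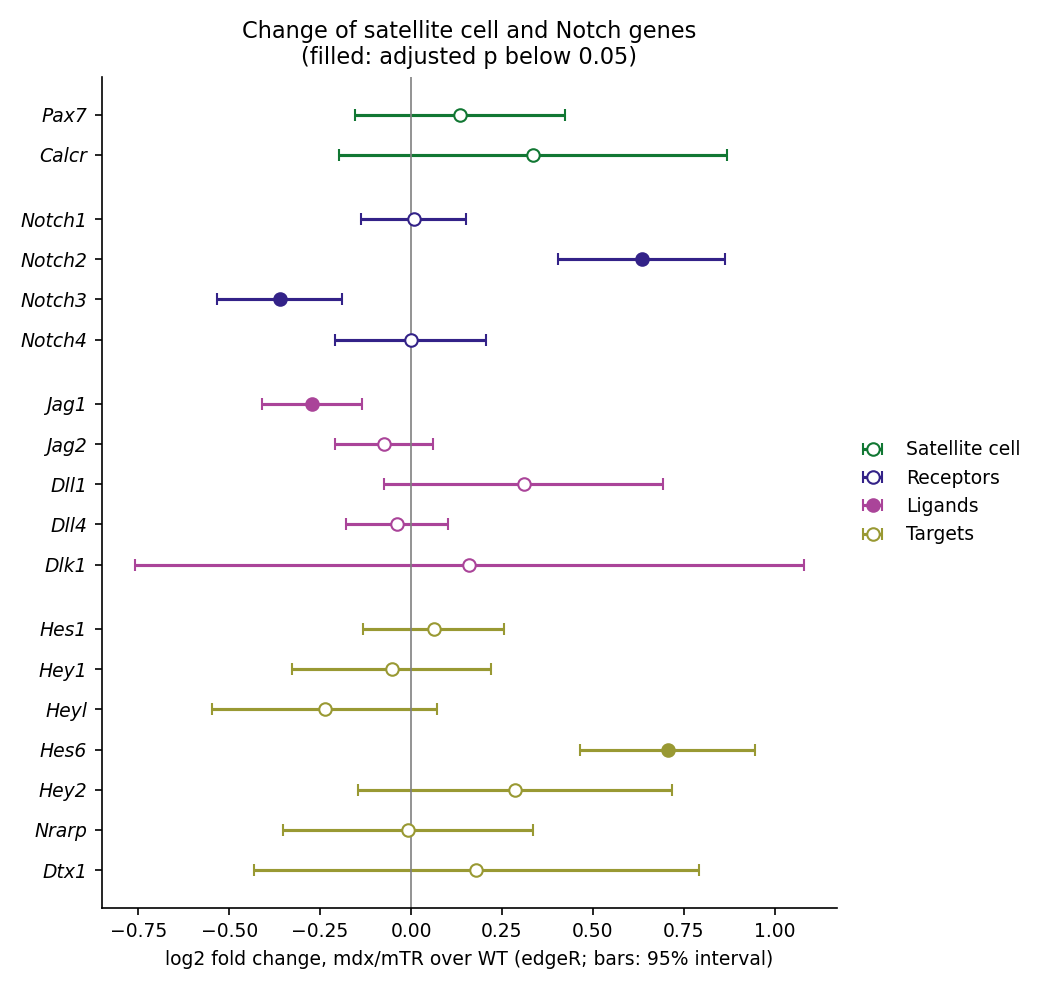
Log2 fold change, mdx/mTR against WT (x axis), of the 10 genes and the other tested Notch receptors, ligands and targets; bars are 95% intervals and filled points have an adjusted p below 0.05. Notch2 (0.63) and Hes6 (0.71) lie to the right of 0, and Notch3 (-0.36) and Jag1 (-0.27) to the left. Hes6 is drawn with the targets as a Hes relative, and its induction by Notch was not tested.

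Levels of different genes were compared as CPM per kilobase of exon, counting every exon base annotated for a gene. In WT the order from high to low was Notch3 (8.03 ± 0.982), Hes1 (6.09 ± 0.436), Jag2 (5.98 ± 0.578), Heyl (4.53 ± 0.609), Jag1 (2.83 ± 0.121), Notch1 (2.45 ± 0.129), Notch2 (1.85 ± 0.189), Hey1 (1.64 ± 0.246), Pax7 (0.516 ± 0.0549) and Calcr (0.171 ± 0.0345). Neighbours whose WT ranges overlapped were Hes1 and Jag2, Jag2 and Heyl, and Notch2 and Hey1. In mdx/mTR Notch2 reached 2.87 ± 0.539 CPM per kilobase beside 2.46 ± 0.261 for Notch1. Notch2 was above Notch1 on this scale in 5 of 6 mdx/mTR mice and in 0 of 6 WT mice. The order in mdx/mTR depends on the length used. Annotated exon bases were 14232 for Notch1 and 10782 for Notch2, where their longest coding transcripts had 9488 and 10500 bases. Other ranks may depend on the length too, such as those of Notch3 and Hes1. In mdx/mTR Hes1 had 6.36 ± 0.935 CPM per kilobase beside 6.25 ± 0.518 for Notch3. Annotated exon bases were 2037 for Hes1 and 8089 for Notch3, where their longest coding transcripts had 1468 and 8016 bases.

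The receptor make-up was described as each receptor's share of the summed CPM per kilobase of Notch1 to Notch4. Notch3 held 50.1% ± 1.88 in WT (48.3% to 53.3%) and 41.0% ± 2.25 in mdx/mTR (38.4% to 44.9%). Notch2 held 11.6% ± 0.619 in WT (10.9% to 12.2%) and 18.8% ± 2.43 in mdx/mTR (16.6% to 23.2%). The groups were apart for both shares, which do not depend on the scaling of libraries. Their size depends on the exon lengths used. Notch1 (15.3% ± 1.0045 and 16.1% ± 1.15) and Notch4 (23.0% ± 1.81 and 24.1% ± 2.89) kept overlapping shares.

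**Figure D3:**
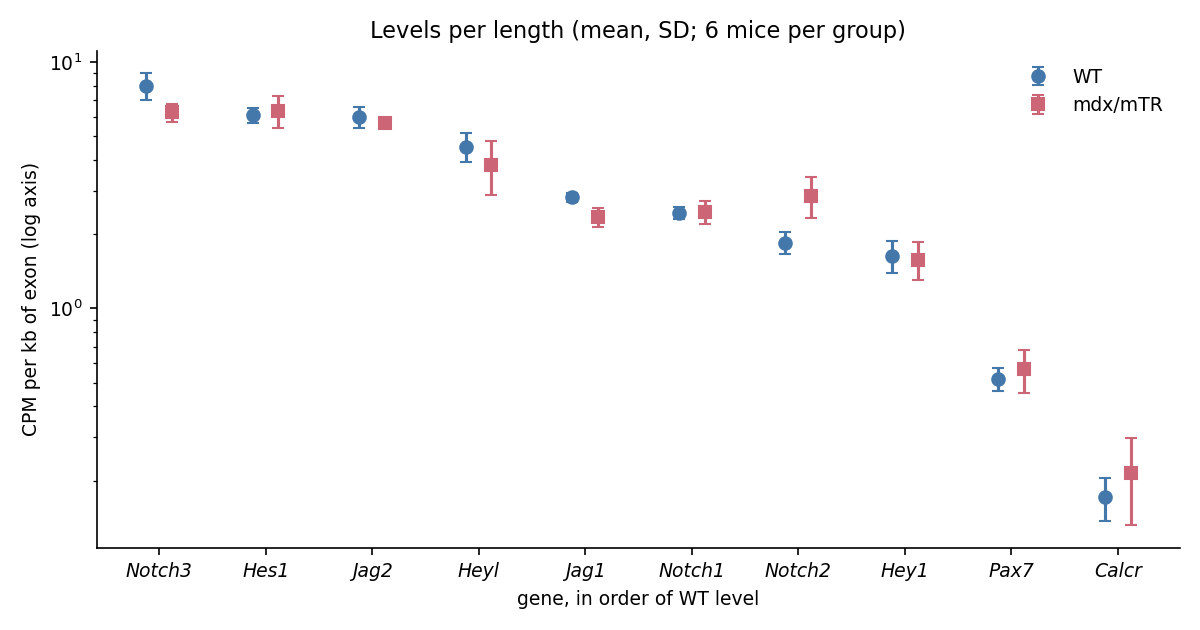
Level of the 10 genes in CPM per kilobase of exon (log axis), in order of the WT mean; points are means and bars the SD of 6 mice. With these exon lengths Notch2 lies above Notch1 in mdx/mTR and below it in WT, and Pax7 and Calcr are the lowest in both groups.

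Ratios within a library ask whether pairs of genes shifted against each other, without a scaling of libraries. For every 1 count of Pax7 there were 6.78, 7.53 and 8.73 counts of Heyl in WT (lowest, median and highest) and 4.71, 5.76 and 7.20 in mdx/mTR. The groups overlapped only where the highest mdx/mTR mouse reached into the WT range. The difference in mean log2 ratio was -0.38, from 2.93 ± 0.132 to 2.55 ± 0.209 (SD, n = 6 each), with a two-sided exact permutation p of 0.00649 (0.0108 adjusted over the 5 ratios computed). The smallest p this design allows is 0.00216.

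Notch3 counts per Pax7 count were 19.4, 20.6 and 26.7 in WT and 12.7, 15.5 and 20.1 in mdx/mTR, so that the ranges met at their edges. The difference in mean log2 ratio was -0.47, from 4.42 ± 0.165 to 3.94 ± 0.241 (SD, n = 6 each), with an exact permutation p of 0.00649 (0.0108 adjusted). Myod1, the transcription factor of committed myoblasts, went the other way: its counts per Pax7 count were 4.90, 5.73 and 10.5 in WT and 9.35, 11.4 and 12.95 in mdx/mTR, again with an overlap at the edges. The log2 ratio of Myod1 to Pax7 rose by 0.83 (exact permutation p 0.00433, adjusted p 0.0108, n = 6 each). Myod1 itself was called higher (log2 fold change 0.93 ± 0.14 SE, edgeR adjusted p 0.000176) and Notch3 lower, while Pax7 was not called. The ratios of Notch3 and Myod1 to Pax7 are therefore not separate from those calls.

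Calcr counts per Pax7 count spread widely, at 0.170, 0.208 and 0.322 in WT and 0.130, 0.255 and 0.462 in mdx/mTR. The log2 ratio differed by 0.14 (exact permutation p 0.617, adjusted p 0.617, n = 6 each), which did not pass. Jag2 counts per Jag1 count were 2.06, 2.53 and 3.004 in WT and 2.74, 2.88 and 3.26 in mdx/mTR, a log2 difference of 0.20 (exact permutation p 0.0195, adjusted p 0.0244, n = 6 each).

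**Figure D4:**
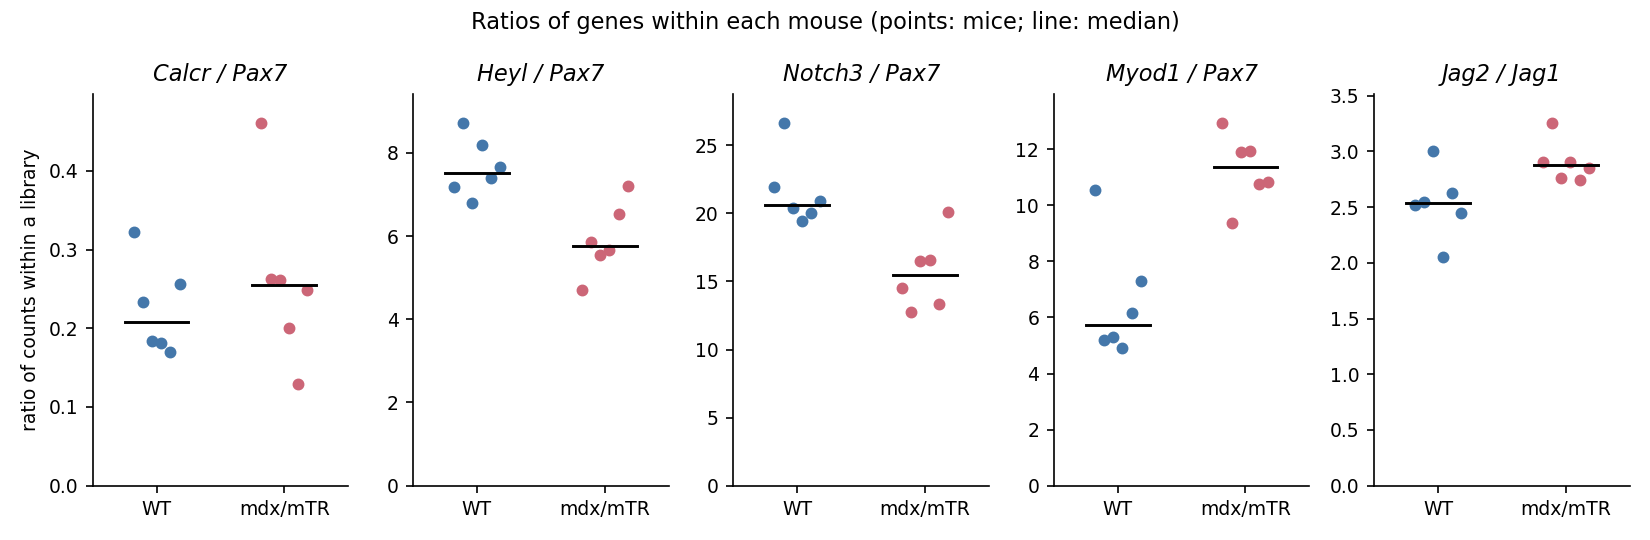
Ratio of the counts of 2 genes within a library (y axis, from 0) in 6 WT and 6 mdx/mTR mice; points are mice and lines medians. Heyl and Notch3 per Pax7 are lower in mdx/mTR, and Myod1 per Pax7 and Jag2 per Jag1 are higher. Calcr per Pax7 did not pass the test. The ranges of the groups overlap for every ratio shown.

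The rest of the Notch pathway was read from a list of 43 genes. Of 39 tested, 9 were higher, 5 were lower and 25 were not called, which is 23.1% and 12.8% beside 25.0% and 23.4% of all genes. The median log2 fold change was 0.06. Scaled by library totals alone, 18 were higher and 0 lower, beside 40.2% and 11.2% of all genes. By role, 0 of 3 tested genes listed as Delta-type ligands (Dll1, Dll4 and Dlk1) were called. Of 9 protease genes 4 were higher and 1 lower, and of 6 genes of the nuclear complex 2 were higher and 1 lower. Of 5 sugar transferases 1 was lower, Rfng (-0.21 ± 0.05 SE, edgeR adjusted p 0.00458), of 4 ligand ubiquitin ligases 1 was lower, and of 7 genes of receptor turnover and inhibition 2 were higher and 1 lower.

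The smallest p-values belonged to Dtx4, a Deltex-type ubiquitin ligase of the pathway, which rose from 10.2 ± 0.746 to 18.4 ± 3.25 CPM (SD, n = 6 each), a log2 fold change of 0.85 ± 0.10 (SE; edgeR adjusted p 2.7e-05). Hes6, a Hes relative known to promote differentiation, rose from 5.90 to 9.63 CPM (0.71 ± 0.11, adjusted p 0.000201). Numbl, a homologue of the Notch inhibitor Numb, rose from 4.81 to 7.58 CPM (0.66 ± 0.11), while Numb fell from 26.8 to 23.8 CPM (-0.18 ± 0.04, adjusted p 0.00418). Maml3, a coactivator that joins RBPJ, rose (0.40 ± 0.07), and Spen, a corepressor of RBPJ, fell (-0.24 ± 0.05). For these 6 genes and Rfng the ranges of the groups did not overlap, as was the case for 25.2% of all tested genes. The 6 were picked by their p-values and Rfng after its values were seen, so the lack of overlap adds no support. Spen (-0.0854), Rfng (-0.0582) and Numb (-0.0187) were not called with library totals alone (adjusted p from edgeR 0.196, 0.374 and 0.807).

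The DNA-binding partner Rbpj itself averaged 16.4 and 18.1 CPM in WT and mdx/mTR, a change of 0.15 ± 0.08 on the log2 scale (SE; edgeR adjusted p 0.147). It was called higher with library totals alone (0.31, adjusted p 0.0212). The ligands Dll1 (0.31, adjusted p 0.169), Dll4 (-0.04, adjusted p 0.650) and Dlk1 (0.16, adjusted p 0.778) were not called, nor was Notch4, the receptor of endothelial cells (-0.00089, adjusted p 0.994). Of the further targets, Hey2 (0.29, adjusted p 0.258), Nrarp (-0.01, adjusted p 0.968) and Dtx1 (0.18, adjusted p 0.629) were not called. Signs of Dll4, Nrarp and Notch4 were positive with library totals alone.

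Of 16 other genes of satellite cells, 11 were higher, 3 lower and 2 not called, beside 48.3% called among all tested genes (median log2 fold change 0.46). Ncam1, a cell adhesion molecule also of young and denervated fibres, rose from 6.86 to 24.2 CPM (1.82 ± 0.22 SE, edgeR adjusted p 2.4e-05). Itga7, a laminin receptor also of fibres, rose from 144 to 207 CPM (0.53 ± 0.07), and Cxcr4, a chemokine receptor also of leukocytes, from 3.89 to 9.46 CPM (1.28 ± 0.18). Tenm4 (1.28 ± 0.20) and Megf10 (1.10 ± 0.17) rose as well. Chrdl2, a secreted BMP-binding protein, fell from 1.22 to 0.425 CPM (-1.53 ± 0.23, adjusted p 0.000130). The summed macrophage and fibro-adipogenic markers were also higher in mdx/mTR, with no overlap between the groups, and their part in this count was not tested.

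Further genes of this list were singled out after their values were seen. Vcam1 rose (0.81 ± 0.16 SE, edgeR adjusted p 0.000844). Pax3, a paralog of Pax7, fell from 0.894 to 0.573 CPM (-0.64 ± 0.17, adjusted p 0.00589), and Cdh15, a cadherin of satellite cells, fell from 29.6 to 22.9 CPM (-0.37 ± 0.11, adjusted p 0.0119), a call that was lost with library totals alone (-0.20, adjusted p 0.218). Myf5, a determination factor, rose from 1.85 to 2.68 CPM (0.54 ± 0.18, adjusted p 0.0246). The Myf5 call was lost without mdx/mTR replicate 2 or 5 or WT replicate 5 or 6, at an adjusted p of 0.0510 to 0.0577.

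Genes of myoblast differentiation and fusion mostly rose. Of 13 tested, 10 were higher, 0 lower and 3 not called, beside 25.0% higher and 23.4% lower among all tested genes, with a median log2 fold change of 2.46. Markers of dividing cells moved with this list: the 4 tested of 5 were all called higher, and the sum of the 5 was 0.861 to 10.7 CPM in WT against 4.65 to 32.1 CPM in mdx/mTR, with Ccnb1 not tested. The macrophage sum given above was higher too, and the part of either marker list in this count was not tested. The smallest p-values were those of Mdfi, an inhibitor of MyoD-family factors (4.48 ± 0.23 SE), Chrng, the fetal acetylcholine receptor subunit (5.81 ± 0.48), and Tmem8c, the table's name for the fusion gene Mymk (7.37 ± 0.64). They were followed by Gm7325, the older name of the fusion gene Mymx (5.49 ± 0.54), the transcription factor Myog, from 2.87 to 15.8 CPM (2.46 ± 0.28), and the embryonic myosin Myh3 (4.06 ± 0.51). Myh3 had a log2 fold change of 3.37 without mdx/mTR replicate 5, and Tmem8c one of 7.97 without WT replicate 2. The edgeR adjusted p of these 6 was 3.1e-05 or smaller. For Tmem8c, Gm7325 and Chrng the WT means were 0.0592, 0.0452 and 0.0673 CPM, near the level that 3 counts give in a WT library (0.0784 to 0.0837 CPM), so the size of these folds depends on the prior count of the fit.

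Collagen V is a Notch-induced matrix component that is known to bind the calcitonin receptor on satellite cells. Its 3 chains rose together: Col5a1 from 77.7 to 163 CPM (1.07 ± 0.20 SE), Col5a2 from 59.0 to 158 CPM (1.43 ± 0.22) and Col5a3 from 78.7 to 152 CPM (0.95 ± 0.15), with edgeR adjusted p of 0.000627, 0.000154 and 0.000149. Of 7 genes of this list, 4 were higher and 1 lower, beside 25.0% and 23.4% of all tested genes. Calcrl, the receptor most like Calcr and known from endothelium, fell from 21.1 to 15.7 CPM (-0.42 ± 0.08, adjusted p 0.00114), and the coreceptor Ramp1 was higher (0.32 ± 0.12, adjusted p 0.0340). The Ramp1 call was lost in 8 of 12 fits that left out 1 mouse, all but those without mdx/mTR replicate 2, 3 or 5 or WT replicate 4. Its log2 fold changes over the 12 fits were 0.27 to 0.39. Matrix-making cells moved with the collagens: of 6 fibro-adipogenic markers 4 were higher and 0 lower, none was at 0, and their sum was 477 to 602 CPM in WT and 710 to 839 CPM in mdx/mTR. The part of these markers in the collagen V result was not tested.

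**Figure D5:**
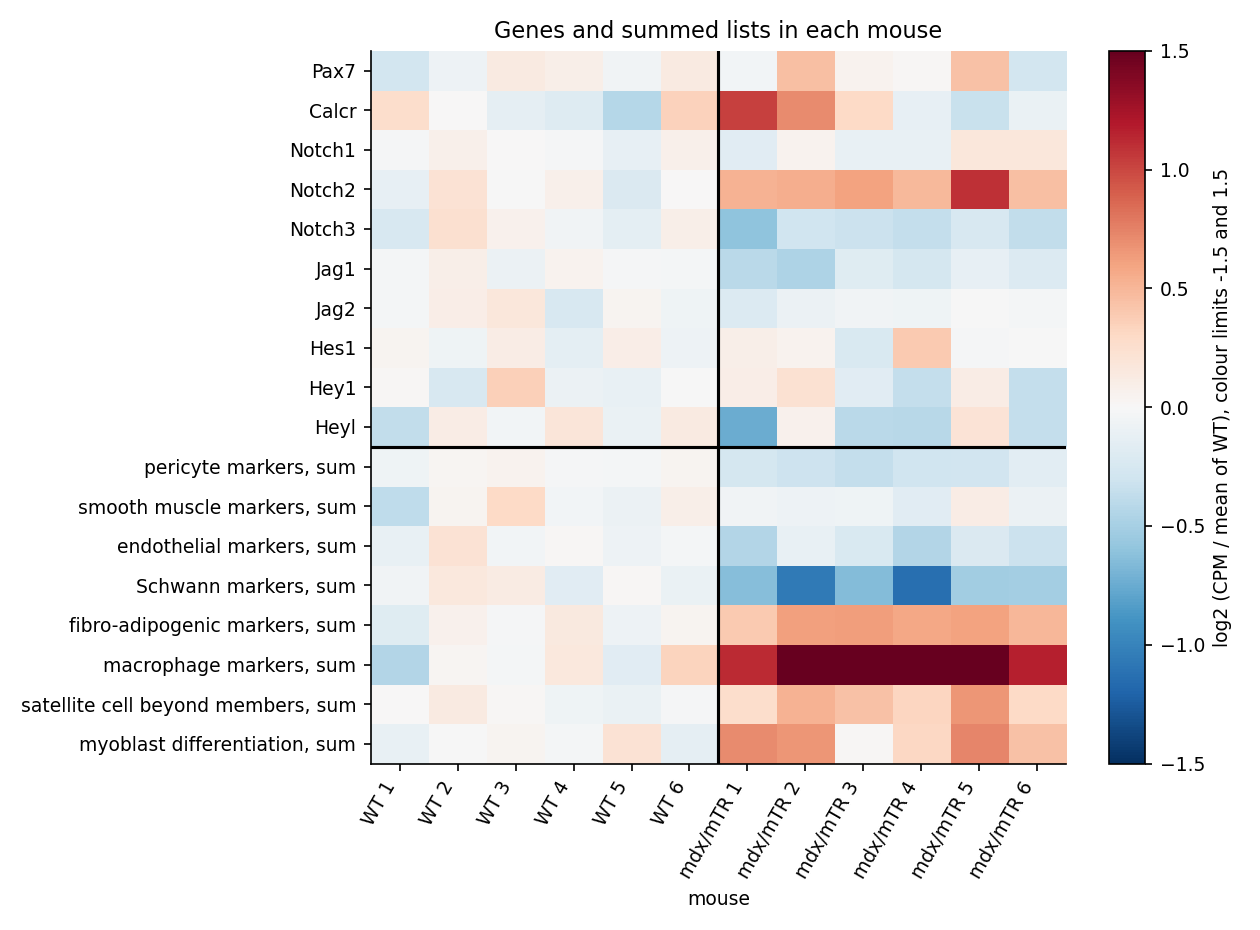
Level of the 10 genes (upper rows) and summed level of 8 gene lists (lower rows) in each of 12 mice (columns), as log2 of CPM over the WT mean; colours saturate at -1.5 and 1.5. Notch2 is darkest in mdx/mTR replicate 5, the macrophage sum reaches the end of the colour scale in several mdx/mTR mice, and Notch3, Jag1 and the pericyte and endothelial sums lie below the WT mean in the 6 mdx/mTR mice.

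Genes that varied most like Pax7 were sought over the 12 mice after centring log2 CPM within each group. Among 12204 genes of at least 1 CPM, the highest Pearson r were those of Myo5a (0.942, Spearman rho 0.937), Arpc3 (0.929, rho 0.895), Slc25a5 (0.927, rho 0.965), Dpt (0.924, rho 0.804) and Mpeg1 (0.922, rho 0.951). They were picked as the highest of all genes, so no p is given. Without the 2 mice farthest in Pax7, mdx/mTR replicates 2 and 5, r was 0.864 to 0.887 for the 5. Among the 8 other members of at least 1 CPM Heyl stood highest, at r 0.796 (rho 0.825), which was position 303 of the 12204 genes, and r was 0.595 without those 2 mice. Dpt is a marker of fibro-adipogenic cells and Mpeg1 of macrophages, and all points share library preparation and the scaling of libraries.

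Of the 10 genes, 3 have an adjusted p below 0.05 in the authors' deposited table, beside 50.1% of all genes with an adjusted p there. The authors' deposited table gives log2 fold changes of 0.61 for Notch2, -0.37 for Notch3 and -0.28 for Jag1. For Pax7 the authors' deposited table gives 0.12 (adjusted p 0.492), for Calcr 0.29 (adjusted p 0.321) and for Heyl -0.24 (adjusted p 0.149).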

How the data were processed

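Messenger RNA libraries of the tibialis anterior of 12 mice were analysed, 6 per group, with groups and replicate numbers from the labels. The submitters' processing notes name FastQC, STAR, DESeq2 and the mm10 build, with no versions or roles, and the annotation and strand handling are not given in the sources used here. The authors deposited whole-number counts per gene symbol with 1 column per mouse (24421 entries, 5131 with no count). The authors' deposited table of their comparison holds a mean normalized signal, log2 fold changes with standard errors, a test score and p-values, per the file headers.

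The deposited counts went unchanged into edgeR 4.0.16 (R 4.3.3): filterByExpr (13937 genes, 99.97% of counts), TMM scaling, a quasi-likelihood model with group as the only term, and Benjamini-Hochberg adjustment over all tested genes with a threshold of 0.05. The SE is the log2 fold change over the square root of F, and intervals are 95% intervals from it. A count of 3, the upper limit that 0 counts allow, corresponds to 0.0460 to 0.0837 CPM and covers counting error only. The labels do not say that the 12 samples are separate litters or cages, and p-values measure the spread between these mice. Replicate pairs differed beyond sampling noise (chi-square per degree of freedom 8.87 to 116), so all were counted. Ratios used log2 of counts plus 0.5 and exact permutation in scipy 1.17.1. Exon lengths and coordinates are from GENCODE M21 (GRCm38, the same assembly as mm10), and promoter letters from RefSeq (GRCm38.p6, 7 of 10 members matched).

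The members and lists were chosen with earlier results of these data known. Named genes are the 10 members and the 6 smallest p-values among called genes of each of 4 lists. All tested Notch ligands, receptors and targets, the 5 genes most like Pax7, and Dmd are named too. Rfng, Rbpj, Vcam1, Pax3, Cdh15 and Myf5 were singled out after their values were seen. So were the markers Abcc9, Pdgfrb and Cspg4 and the single-gene value of Myod1. Alternatives were other scalings and filters, DESeq2 1.42.0, limma-voom (limma 3.58.1), a replicate block and each mouse left out. On simulated counts of 13937 genes edgeR recovered 90% of genes changed by 1 and 58% of those changed by 0.5 on the log2 scale, with 2 false calls among 150. The simulation changed 100 genes at each size, as many up as down, where 48.3% of tested genes were called in the data. Its rates therefore need not hold for these data.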

Additional observations from a re-analysis of the deposited data

Results flagged for a closer look

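Each group of 6 values was searched for a mouse far from the rest by Dixon's criterion at the 95% level, which divides the distance between an extreme value and the next one by the spread from lowest to highest. For the 10 genes and 5 ratios this made 30 searches, of which chance alone gives 1.5, and 2 mice stood out. Notch2 in mdx/mTR replicate 5 was 42.6 CPM, where the other 5 mice of its group had 27.1 to 30.4 CPM (Dixon ratio 0.789). The log2 ratio of Jag2 to Jag1 in mdx/mTR replicate 2 was 1.70, against 1.46 to 1.54 in the others (Dixon ratio 0.662). In both cases the mouse lay on the far side from WT.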

How the results depend on the processing

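Notch2 was called higher under every alternative run, and Notch3 and Jag1 were called lower under each one but library totals alone. With library totals alone the calls of Notch3 (-0.20) and Jag1 (-0.11) were lost, Jag2 (0.0853), Hey1 (0.11), Dll4 (0.12), Nrarp (0.16) and Notch4 (0.16) turned positive, 1 member was called and 0 were lower, 18 genes of the Notch list were higher and 0 lower, and 5596 of all genes were higher and 1560 lower. Upper quartile scaling turned Dll4 (0.0017), Nrarp (0.0317) and Notch4 (0.0400) positive, and the filter at a mean of 1 CPM turned Nrarp (0.0043) and Notch4 (0.0119) positive, left out Calcr, Chrdl2, Pax3, Dlk1, Hey2 and Dtx1, and left 1 lower gene in the satellite cell list. DESeq2 gave Notch1 a log2 fold change of -0.00215, and limma-voom gave Dlk1 -0.15. None of these values of turned sign was called, and the cause was not tested.

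Leaving out 1 mouse gave log2 fold changes of 0.52 to 0.68 for Notch2, -0.41 to -0.31 for Notch3, -0.30 to -0.24 for Jag1, 0.06 to 0.20 for Pax7 and -0.35 to -0.16 for Heyl. Signs turned for Notch1 (-0.0294 to 0.0395), Hes1 (-0.0152 to 0.113), Hey1 (-0.118 to 0.0284), the Calcr to Pax7 ratio (-0.0415 to 0.321), Dlk1 (-0.196 to 0.352), Nrarp (-0.151 to 0.0690) and Notch4 (-0.0653 to 0.0616).

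Deviations from the group means of mice with the same number had correlations of -0.155 to 0.354, and 2 of 6 exceeded 0.1. For 2 of 6 WT mice the closest mdx/mTR mouse was the one with the same number. Whether some mice with the same number were processed together is not settled by this. With a replicate block 6420 genes were called in place of 6736, the Jag2 to Jag1 ratio did not pass (0.20, exact permutation p 0.0938 over 6 pairs), Myf5 did not pass (0.52, adjusted p 0.0709), Dlk1 was -0.10, and the calls of the 10 members did not change. Calcr drew 19 to 78 counts a library, so its values carry both counting error and the spread between mice.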
